A study of Mus musculus with 40 samples.

Results

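The conjugation enzymes of phase II drug metabolism were followed in liver RNA of germ-free mice: glutathione transferases (GST), UDP-glucuronosyltransferases (UGT) and sulfotransferases (SULT). Members were chosen by gene symbol, as Gsta, Gstk, Gstm, Gsto, Gstp, Gstt, Mgst, Ugt1a to Ugt3a, Ugt2b and Sult genes, without pseudogenes and antisense genes and with at least 200 counts summed over all libraries. The rule found 45 members among 32544 gene rows, of which 20 were GST, 17 UGT and 8 SULT genes. Just inside the count limit were Sult1e1 with 372 summed counts, Sult2a7 with 530 and Ugt1a10 with 555, and just outside it were Mgst2 with 46, Gsto2 with 39 and Ugt1a2 with 34. All 45 members passed the filter on low counts and were tested.

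All mice were germ-free C57BL/6 males, that is, animals without gut microbes, sampled at postnatal day 64 after 6 weeks of treatment. They were fed the control or the Western diet and given vehicle or delta-valerobetaine (VB), a trimethylated compound known as a product of gut bacteria, in 4 groups of 5 mice each. No dose and no collection time were given in the labels used here. The comparisons ask what VB did on each diet, what the diet did with and without VB, and whether the VB effect depended on diet.

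Phase II enzymes attach a polar group to reactive, foreign or endogenous molecules, which can then be exported into bile or urine. Glutathione transferases add glutathione to electrophiles, UDP-glucuronosyltransferases add glucuronic acid from UDP-glucuronic acid to bilirubin, steroids and drugs, and sulfotransferases add sulfate from the donor PAPS to phenols, steroids and bile acids. In liver, many of these genes are known targets of the xenobiotic receptors CAR, PXR and AHR and of the stress factor NRF2, and some differ between the sexes under growth hormone.

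Counts ran from 16315342 to 24566686 per mouse after the 2 lane files of each mouse had been summed. The members together held 1.55% to 2.12% of all counts. For Western diet VB mouse 1, the treatment label of 1 lane read vehicle against a title that read VB, and it was analysed under its title. Western diet vehicle mouse 4 stood apart in its share of mitochondrial counts, which was 4.62% against 1.99% to 3.33% in the other mice. It was the highest of its group for 26 of 45 members, mouse 4 of the Western diet VB group was the highest of its group for 29, and mouse 5 of that group was the lowest for 23. Major urinary protein genes held 6.25% to 13.7% of counts in 3 groups and 15.8% to 25.2% in Western diet VB mice, and levels are given as CPM, counts scaled by library size after TMM scaling. Hepatocyte markers summed to between 32345 and 53425 CPM in every mouse. In bulk tissue, fewer cells of a type and less RNA per cell cannot be told apart. The p-values set a difference of group means against the spread between mice within groups, estimated from all 4 groups together.

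Levels were compared between genes per kilobase of annotated exon. Mgst1, a membrane-bound glutathione transferase, was the highest member with a mean of 2740 CPM per kilobase over 20 mice. Gstp1 followed with 1843, Gstm1 with 1260 and Ugt2b5 with 632. Gstp1 and Gstm1 are soluble transferases of the pi and mu classes, and Ugt2b5 is a steroid- and drug-conjugating transferase. Ugt2b36 stood at 306 CPM per kilobase, Gsta3 at 240, Ugt1a1 at 238 and Ugt2b1 at 205. Sult2a8, a bile acid sulfotransferase, was the highest SULT gene with 185 CPM per kilobase, and Sult1a1, a phenol sulfotransferase, followed with 168. The lowest members were Sult1e1, the oestrogen sulfotransferase, with 0.82 and Ugt1a10 with 0.60 CPM per kilobase. The order of neighbours was not fixed by these means, since Gsta3 and Ugt1a1 differed by less than 1 SD of either within a group, while Gstp1 lay below Gstm1 in control diet VB mice, at 1350 and 1508 CPM per kilobase, and above it in the other 3 groups.

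**Figure D1:**
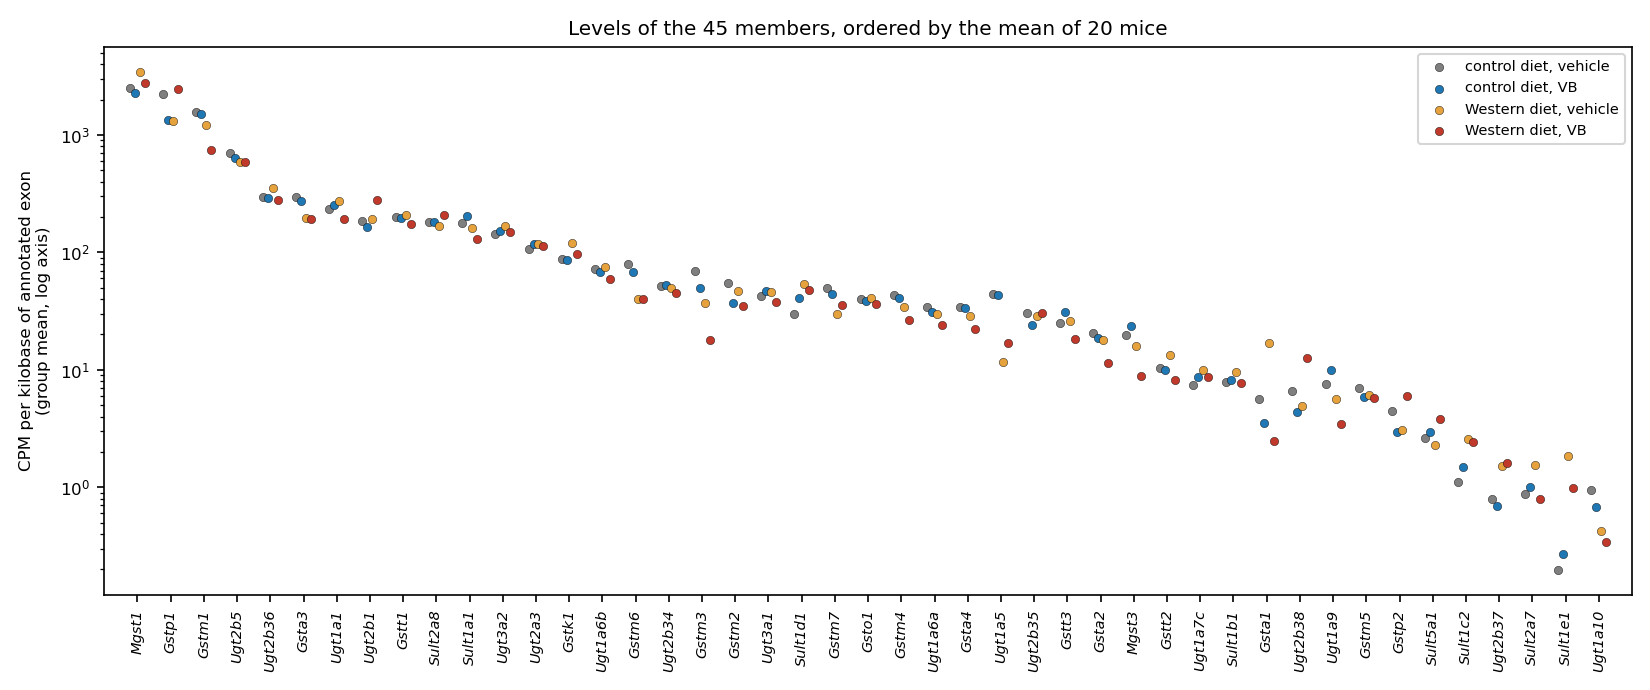
Group means of the 45 members in CPM per kilobase of annotated exon (log axis), ordered by the mean of 20 mice, with 1 point per group. Mgst1, Gstp1 and Gstm1 lead in the order of means at 2740, 1843 and 1260 CPM per kilobase, and Sult1e1 and Ugt1a10 close it at 0.82 and 0.60.

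Members differed in how far their reads can be told from those of other genes. For each member, the share of its 50-base words that also occur in transcripts of another gene was counted. It was 0% for Gsta3, Gsta4, Gstk1, Gstm4, Mgst1, Mgst3, Ugt2b1, Sult1d1 and Sult1e1. It was 89.7% for Gsta1, 51.0% for Gstp1 and close to that for Gstp2, 41.7% for Ugt2b5 and 37.4% for Ugt2b38, and between 54.2% and 96.0% for the 7 Ugt1a members, which have a first exon each and share the exons that follow. For Gstm3 the share was 28.8%, with Gstm1 the member sharing most, and for Gstm1 it was 19.9%. The sources used here do not say how reads shared by genes were counted, and single values of these members are uncertain.

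**Figure D2:**
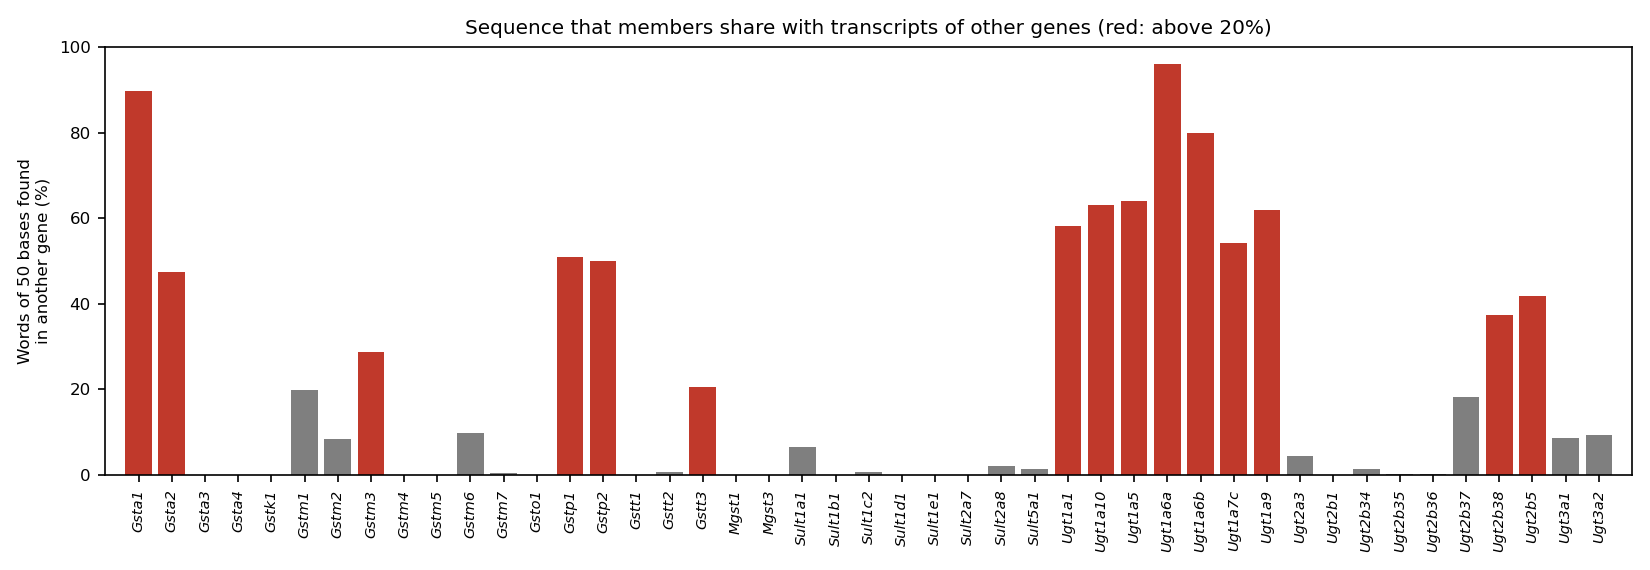
Share of each member's 50-base words that also occur in transcripts of another gene, in percent, with bars above 20% in red. Gsta1, the Gstp pair, the Ugt1a members and the pair Ugt2b5 and Ugt2b38 stand high, and Gstm3 is at 28.8%. Gsta3, Mgst1 and Ugt2b1 are at 0%.

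On the Western diet, VB lowered 8 members and raised 3. The mu-class genes Gstm1 and Gstm3, the alpha-class gene Gsta1 and the bilirubin transferase Ugt1a1 were among those that fell, and the pi-class gene Gstp1, the steroid transferase Ugt2b1 and the bile acid sulfotransferase Sult2a8 rose. In edgeR's quasi-likelihood test with Benjamini-Hochberg adjustment over 12616 genes, 11 of 45 members were called at an adjusted p under 0.05, which is 24.4%, beside 7.19% of all tested genes. By direction, 17.8% of members were lower, beside 3.86% of all genes, and 6.67% were higher, beside 3.33%. The median log2 change was -0.28 over the members and -0.02 over all tested genes. By family, 5 of 20 GST genes fell and 1 rose, 3 of 17 UGT genes fell and 1 rose, and 1 of 8 SULT genes rose.

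Gsta1, an alpha-class transferase (chromosome 9, 78230656 to 78242684, plus strand, GRCm38), had the largest log2 change of the 11 called members. In Western diet vehicle mice 1 to 5 its level was 8.58, 14.1, 17.7, 32.5 and 8.13 CPM, and in Western diet VB mice it was 1.99, 0.64, 2.05, 6.59 and 0.53 CPM. The groups did not overlap, and mouse 4 was the highest in each. Gsta1 fell 6.82-fold with VB (log2 change -2.77, SE 0.53, adjusted p = 0.00331). Of its coding bases 97.9% were identical with those of Gsta2, and 83.7% of its words occur in non-member genes, among them Gm3776 and Gm10639. Gm10639, which was looked up after the values of Gsta1 were seen, had 173 summed counts in Western diet vehicle mice and 39 in Western diet VB mice, a log2 change of -2.35 (SE 0.43). Gsta1 itself had 1377 and 233 summed counts, and the counts of Gm3776 are not given here. How far the fall belongs to Gsta1, Gm10639 or Gm3776 cannot be told apart. Gsta2, named here for its likeness to Gsta1, was at 20.9 CPM with vehicle and 13.4 with VB, with overlapping ranges, and its log2 change of -0.64 (SE 0.30, adjusted p = 0.229) did not pass.

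Of the other alpha-class members, Gsta3, an abundant transferase with no shared words, stood at 857 ± 83.4 CPM (SD, n = 5) in Western diet vehicle mice and at 843 ± 144 in Western diet VB mice, a log2 change of -0.02 (SE 0.10) that did not pass the test. Gsta4, which is known for handling lipid aldehydes, had a log2 change of -0.37 and did not pass either.

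Mu-class genes lie side by side on chromosome 3, and 2 of 7 fell. Gstm1 (108012255 to 108017973, minus strand) stood at 1404, 1868, 1685, 2501 and 1463 CPM in Western diet vehicle mice 1 to 5, and at 1031, 918, 1155, 1474 and 873 CPM in Western diet VB mice. The highest VB mouse, mouse 4, lay above 2 of the vehicle mice, and the rest lay below them all. Gstm1 fell 1.64-fold (log2 change -0.71, SE 0.14, adjusted p = 0.00351). Gstm3 (107963696 to 107969283, minus strand) was at 24.3, 62.6, 43.6, 73.3 and 36.8 CPM with vehicle and at 23.4, 14.6, 26.2, 32.7 and 20.4 CPM with VB. The groups overlapped through vehicle mouse 1. Gstm3 fell 2.05-fold (log2 change -1.03, SE 0.24, adjusted p = 0.0102). Part of its words occur in Gstm1, which stood far higher, and how far reads of Gstm1 entered the Gstm3 counts was not tested. Gstm6 showed a log2 change of -0.01 and Gstm7 one of 0.25, and neither passed.

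Gstp1 is the pi-class transferase, which is known as a male-biased gene of mouse liver (chromosome 19, 4035407 to 4037985, minus strand). It stood at 1755, 1553, 2272, 2400 and 2192 CPM in Western diet vehicle mice 1 to 5 and at 4222, 4213, 2605, 3182 and 4830 CPM in Western diet VB mice. Every VB mouse lay above every vehicle mouse, with VB mouse 3 nearest to them. Gstp1 rose 1.87-fold (log2 change 0.91, SE 0.24, adjusted p = 0.0257). The call was lost when mouse 1 or 2 of the vehicle group or mouse 1, 2 or 5 of the VB group was left out, while the log2 change stayed between 0.81 and 1.02 over all 20 mice left out in turn. Gstp2, its neighbour, was at 1.72, 1.49, 4.22, 6.72 and 2.86 CPM with vehicle and at 4.04, 9.91, 5.44, 7.10 and 6.87 with VB. Its log2 change of 1.01 (SE 0.35, adjusted p = 0.0856) did not pass, and without vehicle mouse 4 it was 1.40 (adjusted p = 0.0104).

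The pair is shown by sequence because their reads are hard to separate. Gstp1 and Gstp2 differ at 12 of 633 coding bases, and 6 of these lie in the first 60, shown here in capitals, from the GENCODE transcripts on GRCm38.
Gstp1: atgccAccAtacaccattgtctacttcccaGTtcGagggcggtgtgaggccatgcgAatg
Gstp2: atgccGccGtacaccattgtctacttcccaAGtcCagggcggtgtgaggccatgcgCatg
Gstp1 stood at 1843 CPM per kilobase and Gstp2 at 4.12 over 20 mice. Whether Gstp1 reads placed on Gstp2 make up part of the low counts of Gstp2 was not tested.

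Mgst3 and Gstt2 also fell, with smaller margins. Mgst3, a microsomal transferase, was at 15.3, 22.3, 11.7, 25.2 and 12.7 CPM with vehicle and at 11.9, 6.46, 10.5, 15.1 and 4.85 CPM with VB, and the groups overlapped. It fell 1.78-fold (log2 change -0.83, SE 0.25, adjusted p = 0.0440). Gstt2, a theta-class transferase, was at 46.9, 62.5, 41.5, 88.3 and 41.0 CPM with vehicle and at 30.2, 28.9, 32.6, 53.7 and 23.5 CPM with VB, a fall of 1.66-fold (adjusted p = 0.0441). Each of these calls was lost when any of 13 of the 20 mice was left out. The log2 change then ran from -1.05 to -0.66 for Mgst3 and from -0.96 to -0.51 for Gstt2. Mgst1, Gstk1, Gsto1, Gstt1 and Gstt3 had log2 changes of -0.32, -0.31, -0.17, -0.25 and -0.51 and did not pass.

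Among the UGT genes, Ugt1a1 is the transferase of bilirubin (chromosome 1, 88211959 to 88218997, plus strand). Its level was 668, 700, 571, 528 and 580 CPM in Western diet vehicle mice 1 to 5 and 459, 375, 452, 481 and 362 CPM in Western diet VB mice. All VB mice lay below all vehicle mice. Ugt1a1 fell 1.43-fold (log2 change -0.52, SE 0.11, adjusted p = 0.00716), and this call was kept whichever mouse was left out. Ugt1a6b, a phenol transferase, fell 1.26-fold (log2 change -0.33, SE 0.082, adjusted p = 0.0155). Its call was lost without vehicle mouse 2 and in a fit of only the groups compared.

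Because the Ugt1a genes share most of their exons, their counts were also summed. The 7 members together had means of 988 CPM in control diet vehicle mice (range 814 to 1121), 1013 ± 54.3 in control diet VB mice (SD, n = 5), 997 ± 94.8 in Western diet vehicle mice and 754 ± 96.0 in Western diet VB mice. The highest Western diet VB mouse was at 876 CPM and the lowest Western diet vehicle mouse at 886 CPM. The sum was not tested. Ugt1a1 made up most of it, with means of 609 CPM in Western diet vehicle mice and 426 CPM in Western diet VB mice. The separation of the groups by the sum is therefore not independent of that by Ugt1a1.

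Ugt2b1, a steroid transferase whose transcript shares no words with another gene (chromosome 5, 86916638 to 86926530, minus strand), moved the other way. It was at 423, 472, 510, 471 and 581 CPM with vehicle and at 613, 811, 639, 634 and 892 CPM with VB on the Western diet. The groups did not overlap. Ugt2b1 rose 1.46-fold (log2 change 0.55, SE 0.12, adjusted p = 0.00794). Ugt2b36, from the same cluster, stood at 702, 769, 689, 809 and 696 CPM with vehicle and at 592, 561, 528, 688 and 511 CPM with VB. The groups came close, with VB mouse 4 just under vehicle mouse 3, and Ugt2b36 fell 1.27-fold (log2 change -0.35, SE 0.086, adjusted p = 0.0144). In a fit of only the groups compared the calls of Gstm3 and Ugt2b36 were lost.

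Ugt2b5, the most abundant UGT gene, stood at 1098 ± 80.3 CPM with vehicle and 1090 ± 72.2 with VB on the Western diet (SD, n = 5). Ugt2b38, which differs from Ugt2b5 at 47 of 1593 coding bases, had a log2 change of 1.34 that did not pass. Ugt2a3, Ugt3a1 and Ugt3a2 had log2 changes of -0.06, -0.28 and -0.17 and did not pass.

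Sult2a8 was the only SULT gene called. It was at 619, 548, 504, 483 and 585 CPM with vehicle and at 721, 735, 580, 676 and 711 CPM with VB on the Western diet, and the groups overlapped through VB mouse 3. It rose 1.25-fold (log2 change 0.32, SE 0.093, adjusted p = 0.0363). The call was lost without vehicle mouse 2, 3 or 4 or VB mouse 1, 2 or 5. Sult1a1, Sult1d1, Sult1e1, Sult2a7 and Sult5a1 had log2 changes of -0.30, -0.18, -0.88, -0.98 and 0.74 and did not pass. The number of members called was 6 without vehicle mouse 2, 7 without VB mouse 2 or 5, and 15 without VB mouse 4.

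**Figure D3:**
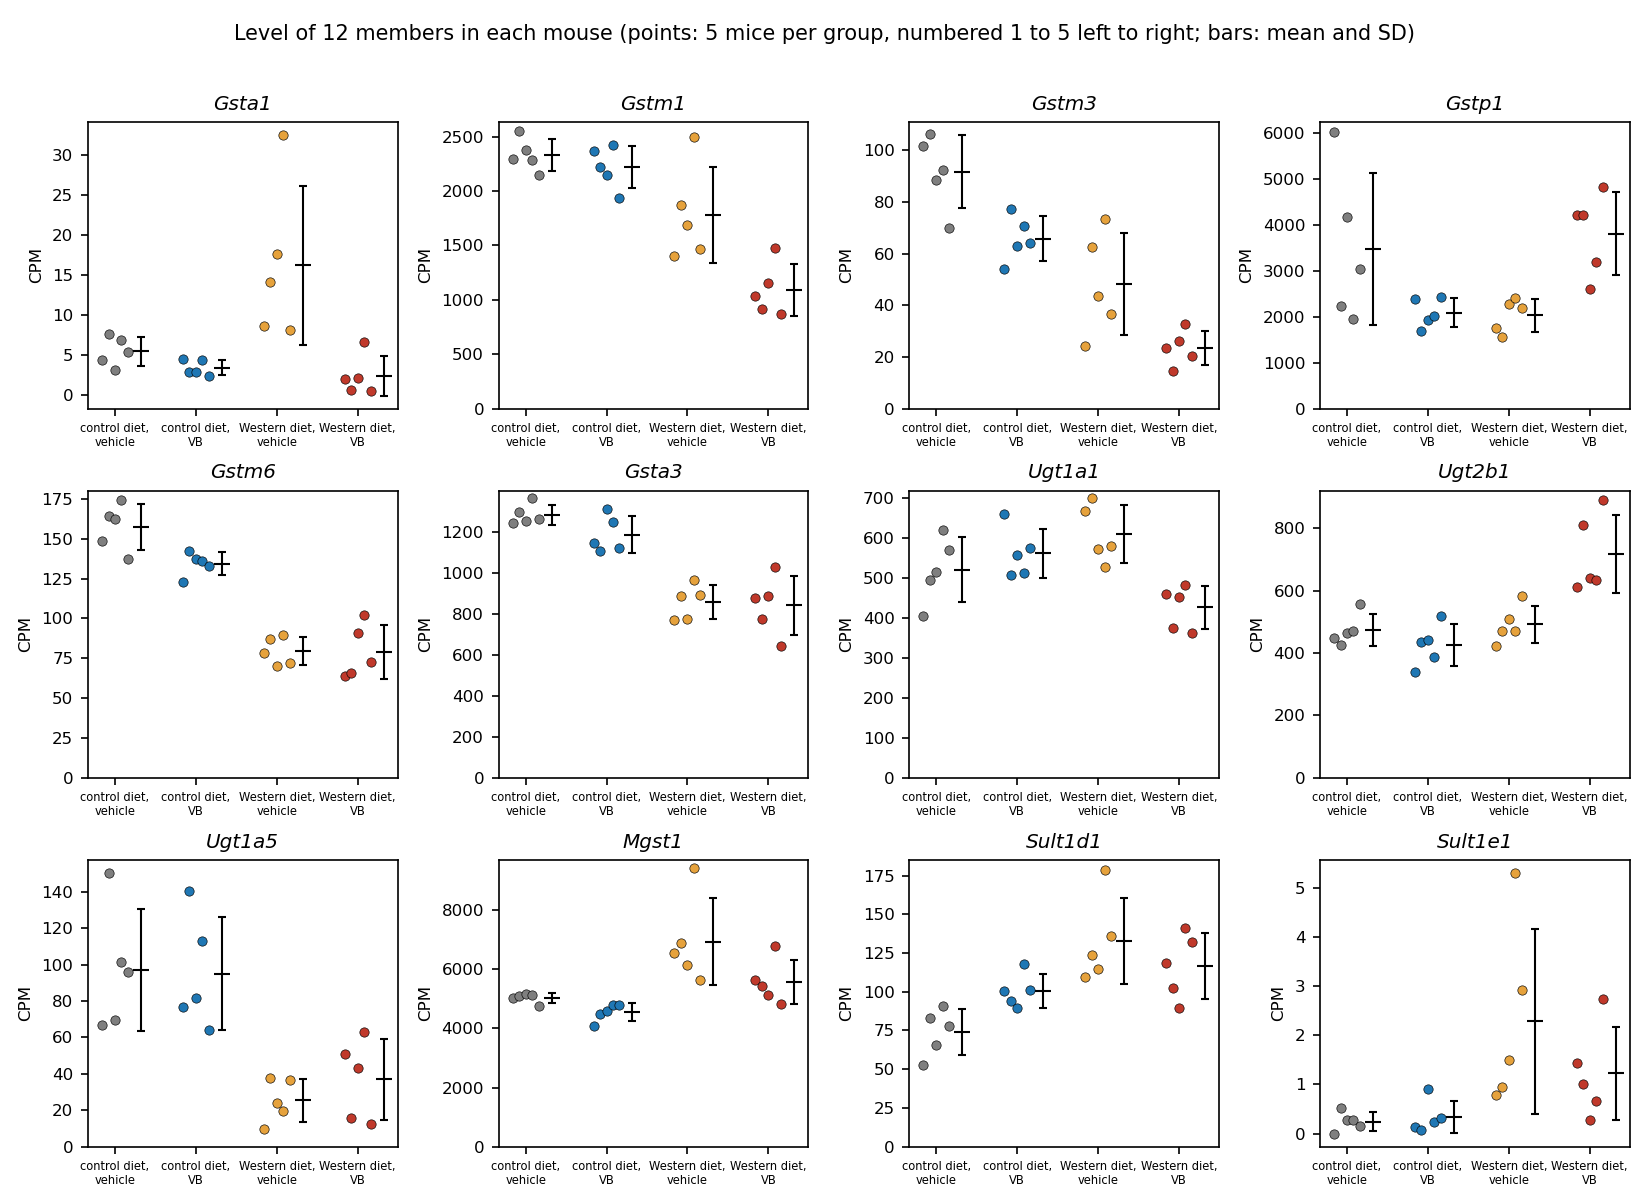
CPM of 12 members in every mouse (points, mice 1 to 5 from left to right in each group) with the group mean and SD beside them. Gsta1, Ugt1a1, Ugt2b1 and Gstp1 separate the Western diet groups without overlap, and mouse 4 is the highest of its Western diet groups for Gsta1, Gstm1 and Mgst1.

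On the control diet, VB changed none of the 45 members by the test. Over all genes 19 of 12616 were called, which is 0.151%, with 0.0555% higher and 0.0951% lower. Before adjustment, 5 members had a p under 0.05, beside 1354 of all genes, and the smallest adjusted p of a member was 0.255 by edgeR's quasi-likelihood test. DESeq2 and limma-voom called 0 members as well. The log2 changes ran from -0.74 to 0.46 with a median of -0.04, and 16 were above 0 and 29 below.

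The 5 members with a small unadjusted p were Gstm2, Gstm3, Gstp1, Sult1d1 and Ugt2b35, which were picked after their values were seen. Gstp1 was at 6013, 2224, 4159, 1959 and 3042 CPM in control diet vehicle mice 1 to 5 and at 2385, 1693, 1924, 2009 and 2438 CPM in control diet VB mice. The vehicle group was spread widely through mouse 1, and the groups overlapped. The log2 change was -0.74 (SE 0.24, adjusted p = 0.255), and without vehicle mouse 1 it was -0.45 (adjusted p = 0.689). Sult1d1, a sulfotransferase of catecholamines, was at 52.6, 82.9, 65.7, 90.7 and 77.8 CPM with vehicle and at 100.3, 93.8, 89.6, 118 and 101 CPM with VB, a log2 change of 0.44 (SE 0.15, adjusted p = 0.265). Ugt2b35 did not overlap between the groups, at 102 ± 10.1 and 80.6 ± 5.30 CPM (SD, n = 5), and had a log2 change of -0.34 (SE 0.12, adjusted p = 0.268).

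Whether the VB effect depended on diet was tested as the difference of the VB effects, Western minus control diet. This is also the difference of the diet effects, VB minus vehicle. It was called for 5 of 45 members, which is 11.1%, beside 7.64% of all tested genes. Higher in this difference were 4 members, or 8.89% beside 3.63% of all genes, and lower was 1 member, or 2.22% beside 4.01%. The median was -0.24 over the members and -0.02 over all genes.

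Gstp1 had the largest called difference among the members, 1.64 on the log2 scale (SE 0.34, adjusted p = 0.00533). Its mean was 3479 ± 1655 CPM with vehicle and 2090 ± 316 with VB on the control diet, and 2034 ± 362 with vehicle and 3810 ± 897 with VB on the Western diet (SD, n = 5). The call was kept without any 1 mouse, with a difference between 1.35 and 1.79. Gstp2 showed a difference of 1.60 (SE 0.49, adjusted p = 0.0469), a call that was lost for 15 of the 20 mice left out, with values between 1.28 and 2.00.

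Ugt2b1 differed by 0.70 (SE 0.17, adjusted p = 0.0148). Its control diet means were 473 ± 50.4 CPM with vehicle and 425 ± 67.7 with VB (SD, n = 5), beside the rise on the Western diet. Ugt1a1 differed by -0.63 (SE 0.16, adjusted p = 0.0201), with control diet means of 520 ± 81.1 CPM with vehicle and 561 ± 61.7 with VB. Both calls were kept without any 1 mouse. Gstm7 differed by 0.42 (SE 0.12, adjusted p = 0.0361), with means of 80.0, 70.8, 47.9 and 56.9 CPM in control diet vehicle, control diet VB, Western diet vehicle and Western diet VB mice. That call was lost for 11 of the 20 mice left out, with values between 0.36 and 0.47. The largest fall with VB on the Western diet, that of Gsta1, did not pass here, with a difference of -2.07. The number of members called was 9 without Western diet VB mouse 4 and 3 without control diet vehicle mouse 1, control diet VB mouse 3, 4 or 5, or Western diet VB mouse 3.

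**Figure D4:**
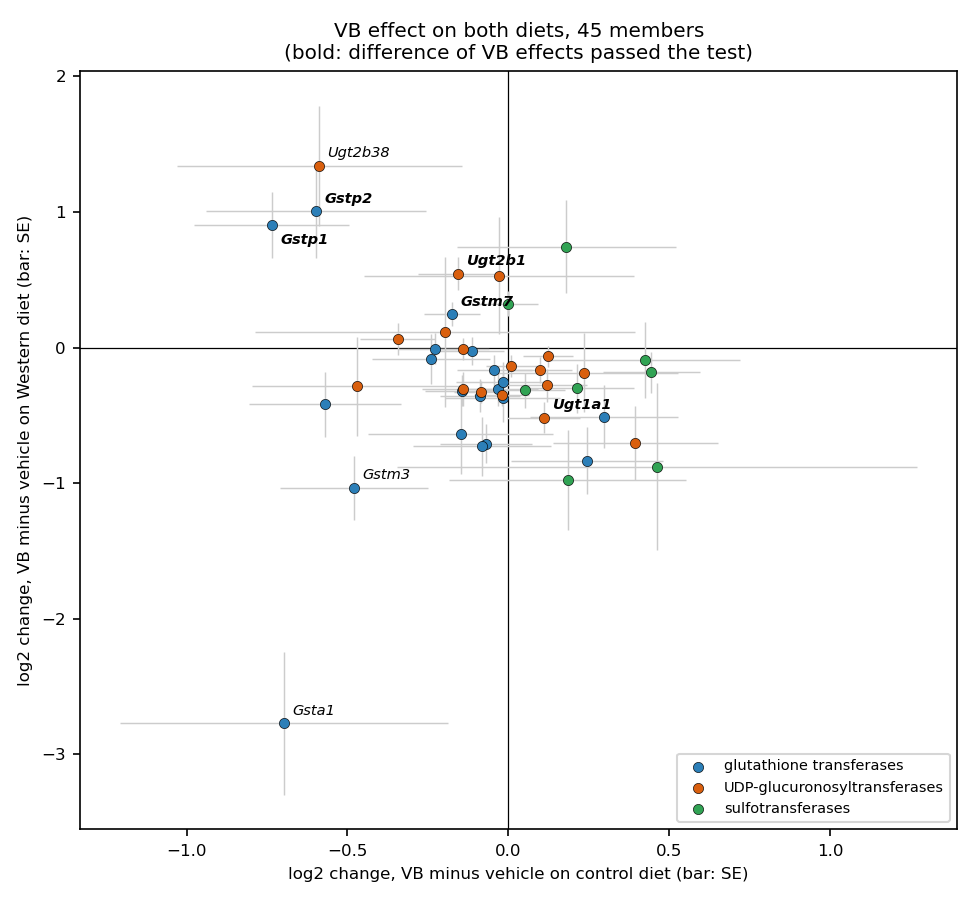
Log2 change with VB on the control diet (x axis) and on the Western diet (y axis) for the 45 members, coloured by family, with bars of 1 SE and bold names where the difference of the VB effects passed the test. Gstp1, Gstp2, Ugt2b1 and Gstm7 lie above 0 on the Western diet and below 0 on the control diet, and Ugt1a1 the other way.

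The promoters of Gstp1, Gstp2 and Ugt2b1, for which the difference of the VB effects was called, are shown with a chosen motif marked in each. From the RefSeq promoters on GRCm38.p6, which span 250 bases before to 50 after a start, 40 of 45 members matched 49 promoters. Motifs were searched on both strands. The AP-1 letters TGAGTCA were added after the Gstp promoters had been read. They occur in 5.20% of all 32851 promoters and in 5 of the 49 member promoters, among them both Gstp genes. The stretches of 100 bases before the start are on the minus strand, at chr19:4037913-4038012 for Gstp1 and chr19:4042222-4042321 for Gstp2, and capitals mark TGAGTCA.
Gstp1: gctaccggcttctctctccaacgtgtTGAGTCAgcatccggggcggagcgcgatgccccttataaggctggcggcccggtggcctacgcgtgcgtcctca
Gstp2: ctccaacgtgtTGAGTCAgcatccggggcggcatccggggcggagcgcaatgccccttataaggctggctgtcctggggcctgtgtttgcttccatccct

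The match begins at position -74 in Gstp1 and at -89 in Gstp2, counted from the start. Gstp1 also holds the xenobiotic response core GCGTG at position -13, left in lower case, while Gstp2 has no match of it. Ugt2b1 was the only member with the D-box letters TTATGTAA, which occur in 0.938% of all promoters and are bound by clock output factors such as Dbp. The stretch at chr5:86926504-86926603, minus strand, holds them in reverse at position -59, in capitals.
Ugt2b1: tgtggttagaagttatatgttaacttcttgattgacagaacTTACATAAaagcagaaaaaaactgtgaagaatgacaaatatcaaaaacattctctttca
The antioxidant response core TGACNNNGC was found in 4 of 49 member promoters, or 8.16%, and in 4071 of all 32851 promoters. The xenobiotic response core GCGTG was found in 10, or 20.4%, and in 32.4% of all, and the STAT5 core TTCNNNGAA in 4, or 8.16%, and in 8.30% of all. In Gstm5 both GCGTG matches overlap a match of another motif. These matches are letters in a window and not measured sites.

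In vehicle mice, the Western diet raised 7 members and lowered 8. The mu-class genes Gstm3, Gstm6 and Gstm7, the alpha-class gene Gsta3 and, of 7 Ugt1a genes, Ugt1a5 and Ugt1a10 were among those that fell, and Sult1c2, Sult1d1, Sult1e1, Mgst1 and Gstk1 were among those that rose. By edgeR's quasi-likelihood test 33.3% of members were called, beside 16.5% of all tested genes. By direction, 15.6% of members were higher, beside 8.92% of all genes, and 17.8% lower, beside 7.59%. The median log2 change was -0.07 over the members and 0.02 over all genes. Among GST genes 3 rose and 5 fell, among UGT genes 1 rose and 3 fell, and among SULT genes 3 rose and none fell.

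Gstm6 (chromosome 3, 107938847 to 107943749, minus strand) was at 149, 165, 163, 174 and 137 CPM in control diet vehicle mice 1 to 5 and at 78.3, 87.3, 70.2, 89.5 and 72.1 CPM in Western diet vehicle mice. The groups lay far apart without overlap. Gstm6 fell 1.98-fold (log2 change -0.99, SE 0.12, adjusted p = 2.72e-06). Gstm7 fell 1.67-fold (log2 change -0.74, SE 0.087, adjusted p = 3.10e-06), from 80.0 ± 4.23 to 47.9 ± 4.29 CPM (SD, n = 5). Gstm3 fell 1.91-fold, from 91.8 ± 14.1 to 48.1 ± 19.7 CPM (adjusted p = 0.00798). All 7 mu-class genes had log2 changes below 0, and those of Gstm1 and Gstm4, -0.39 and -0.34, did not pass.

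Gsta3 (chromosome 1, 21240589 to 21265661, plus strand) was at 1243, 1298, 1254, 1363 and 1261 CPM on the control diet and at 772, 889, 773, 964 and 889 CPM on the Western diet in vehicle mice. The groups did not overlap, and Gsta3 fell (log2 change -0.58, SE 0.10, adjusted p = 0.000300). Its promoter holds 1 match of the antioxidant response core and is shown because Gsta3 fell with the diet in both treatments. The stretch at chr1:21240435-21240584, plus strand, has the match in capitals.
Gsta3: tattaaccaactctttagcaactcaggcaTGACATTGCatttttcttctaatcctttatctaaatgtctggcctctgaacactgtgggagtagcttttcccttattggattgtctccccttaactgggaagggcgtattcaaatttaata

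Gsta1 rose 2.95-fold with the Western diet in vehicle mice (log2 change 1.56, SE 0.49, adjusted p = 0.0349). It was at 4.29, 7.62, 3.12, 6.79 and 5.33 CPM in control diet vehicle mice 1 to 5, all below the Western diet vehicle mice given above. The call was lost without control diet vehicle mouse 1, 3 or 5 or Western diet vehicle mouse 2, 3 or 4, with values between 1.14 and 1.73. Gm10639 also rose, with a log2 change of 1.56 (SE 0.41) and 67 and 173 summed counts in control and Western diet vehicle mice. How far the rise belongs to Gsta1, Gm10639 or Gm3776 cannot be told apart. Gstp1 fell 1.71-fold (log2 change -0.77, SE 0.24, adjusted p = 0.0313). Without control diet vehicle mouse 1, the highest at 6013 CPM, its log2 change was -0.48 (adjusted p = 0.126), and the call was also lost without control diet mouse 3 or Western diet mouse 1 or 2. This call of Gstp1 was lost as well with limma-voom, without the low-count filter, with a block for mouse number and in a fit of only the groups compared.

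Mgst1 was at 5028, 5083, 5169, 5115 and 4757 CPM on the control diet and at 6532, 6877, 6149, 9420 and 5642 CPM on the Western diet in vehicle mice. All Western diet mice were higher, and mouse 4 stood above the rest. Mgst1 rose 1.38-fold (log2 change 0.46, SE 0.11, adjusted p = 0.00719), and without Western diet vehicle mouse 4 the log2 change was 0.31 (adjusted p = 0.0148). Gstk1, a mitochondrial and peroxisomal transferase, rose 1.35-fold, from 130 ± 8.36 to 175 ± 35.2 CPM (SD, n = 5, adjusted p = 0.0190). Without Western diet vehicle mouse 4 its log2 change fell from 0.44 to 0.31 and no longer passed (adjusted p = 0.0542).

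Of the sulfotransferases, Sult1d1 (chromosome 5, 87554645 to 87569027, minus strand) was at 52.6, 82.9, 65.7, 90.7 and 77.8 CPM on the control diet and at 110, 124, 115, 179 and 136 CPM on the Western diet. The groups did not overlap, and Sult1d1 rose 1.79-fold (log2 change 0.84, SE 0.15, adjusted p = 0.000391). Sult1e1, the oestrogen sulfotransferase next to it, had 0, 10, 5, 6 and 3 counts in control diet vehicle mice and 18, 19, 25, 74 and 53 counts in Western diet vehicle mice. Sult1e1 rose 8.98-fold in the fit (log2 change 3.17, SE 0.73, adjusted p = 0.00420), a value that rests on few counts and ran from 2.59 to 3.63 with 1 mouse left out. Sult1c2 rose 2.31-fold, from 2.06 ± 0.87 to 4.73 ± 1.17 CPM (SD, n = 5, adjusted p = 0.00609).

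Among the UGT genes, Ugt1a5 was at 66.9, 150, 69.8, 101 and 96.0 CPM on the control diet and at 9.73, 37.8, 24.1, 19.5 and 36.5 CPM on the Western diet in vehicle mice. The groups did not overlap, and Ugt1a5 fell (log2 change -1.92, SE 0.44, adjusted p = 0.00535). Ugt1a10 fell 2.24-fold (log2 change -1.16, SE 0.34, adjusted p = 0.0218), from 2.15 ± 1.01 to 0.95 ± 0.40 CPM. That call was lost without control diet vehicle mouse 2 or 5 or Western diet vehicle mouse 5. Ugt1a1 had a log2 change of 0.23 that did not pass, and the means of the Ugt1a sum were 988 and 997 CPM.

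Ugt2b5 fell 1.20-fold (log2 change -0.26, SE 0.082, adjusted p = 0.0316), and Ugt2b36 rose 1.20-fold (log2 change 0.26, SE 0.085, adjusted p = 0.0385). The first call was lost without control diet vehicle mouse 1, 2 or 5 or Western diet vehicle mouse 5, and the second for 7 of the 20 mice left out. Both changes were small beside those of Ugt1a5. Ugt2b1, Ugt2a3, Ugt3a1 and Ugt3a2 had log2 changes of 0.05, 0.15, 0.09 and 0.22 and did not pass.

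In VB mice, the Western diet lowered 11 members and raised 3. The falls were mostly of GST genes, with 5 of the 7 mu-class genes among them. By edgeR's quasi-likelihood test 31.1% of members were called, beside 6.44% of all tested genes, with 24.4% of members lower, beside 3.22%, and 6.67% higher, beside 3.23%. The median log2 change was -0.16 over the members and 0.00 over all genes. This comparison shares its Western diet VB mice with that of VB on the Western diet, so their values are not independent.

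Gstm1 was at 2370, 2219, 2151, 2427 and 1938 CPM in control diet VB mice 1 to 5, all above the Western diet VB mice given above. It fell 2.04-fold (log2 change -1.03, SE 0.14, adjusted p = 8.73e-05). Gstm3 was at 54.0, 77.4, 63.0, 70.6 and 64.0 CPM in control diet VB mice, again above every Western diet VB mouse, and fell 2.80-fold (log2 change -1.49, SE 0.24, adjusted p = 0.000532). Gstm6 fell 1.70-fold, Gstm4 1.52-fold and Gstm7 1.24-fold, with adjusted p of 0.000183, 0.00386 and 0.0310. The call of Gstm7 was lost for 7 of the 20 mice left out.

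Mgst3 fell 2.63-fold (log2 change -1.40, SE 0.25, adjusted p = 0.00116), from 25.7 ± 4.11 to 9.78 ± 4.15 CPM (SD, n = 5), without overlap. Gsta3 fell 1.41-fold, from 1186 ± 89.4 to 843 ± 144 CPM (adjusted p = 0.00408). Gsta4 fell 1.53-fold (adjusted p = 0.0434), a call that was lost for 14 of the 20 mice left out. Gsta1, by contrast with vehicle mice, had a log2 change of -0.51 that did not pass.

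Ugt1a9, a phenol transferase, was at 35.9, 19.2, 20.6, 18.5 and 15.7 CPM in control diet VB mice and at 4.78, 9.91, 7.04, 8.59 and 7.59 CPM in Western diet VB mice. The groups did not overlap, and Ugt1a9 fell 2.89-fold (log2 change -1.53, SE 0.27, adjusted p = 0.00116). Ugt1a1 fell 1.32-fold (log2 change -0.40, SE 0.11, adjusted p = 0.0393), and Sult1a1 fell 1.58-fold, from 308 ± 15.6 to 196 ± 51.6 CPM (SD, n = 5, adjusted p = 0.0297). Each of these last calls was lost for 6 of the 20 mice left out: for Ugt1a1 mouse 1, 3 or 5 of the control diet and 2, 3 or 5 of the Western diet VB group, and for Sult1a1 mouse 1, 2, 4 or 5 and 2 or 5.

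Ugt2b1 rose 1.69-fold (log2 change 0.76, SE 0.12, adjusted p = 0.000478). Its control diet VB mice were at 338, 437, 443, 386 and 519 CPM, below every Western diet VB mouse. Gstp1 rose 1.82-fold (log2 change 0.87, SE 0.24, adjusted p = 0.0354), in the opposite direction to vehicle mice, and the tested difference is that given above. The call of Gstp1 was lost for 7 of the 20 mice left out, with values between 0.77 and 0.98. Ugt2b38 rose 2.88-fold (log2 change 1.53, SE 0.44, adjusted p = 0.0461), from 8.21 ± 0.64 to 23.6 ± 16.2 CPM (SD, n = 5), a call lost for 11 of the 20 mice and with limma-voom. The number of members called was 8 without Western diet VB mouse 2 or 5 and 9 without control diet VB mouse 1, 2 or 4.

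Between them, Gsta3, Gstm3, Gstm6 and Gstm7 fell with the Western diet both in vehicle and in VB mice, in comparisons with no mouse in common. Of the 45 members, 28 were called in at least 1 of the 5 comparisons and 17 in none. Those in none included Gsto1, Gstt1, Gstt3, Ugt2a3, Ugt3a1 and Ugt3a2 among the named genes. The shares of all tested genes called in at least 1 comparison, or lower with the diet in both treatments, were not counted. These member counts are therefore not read as particular to the members.

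**Figure D5:**
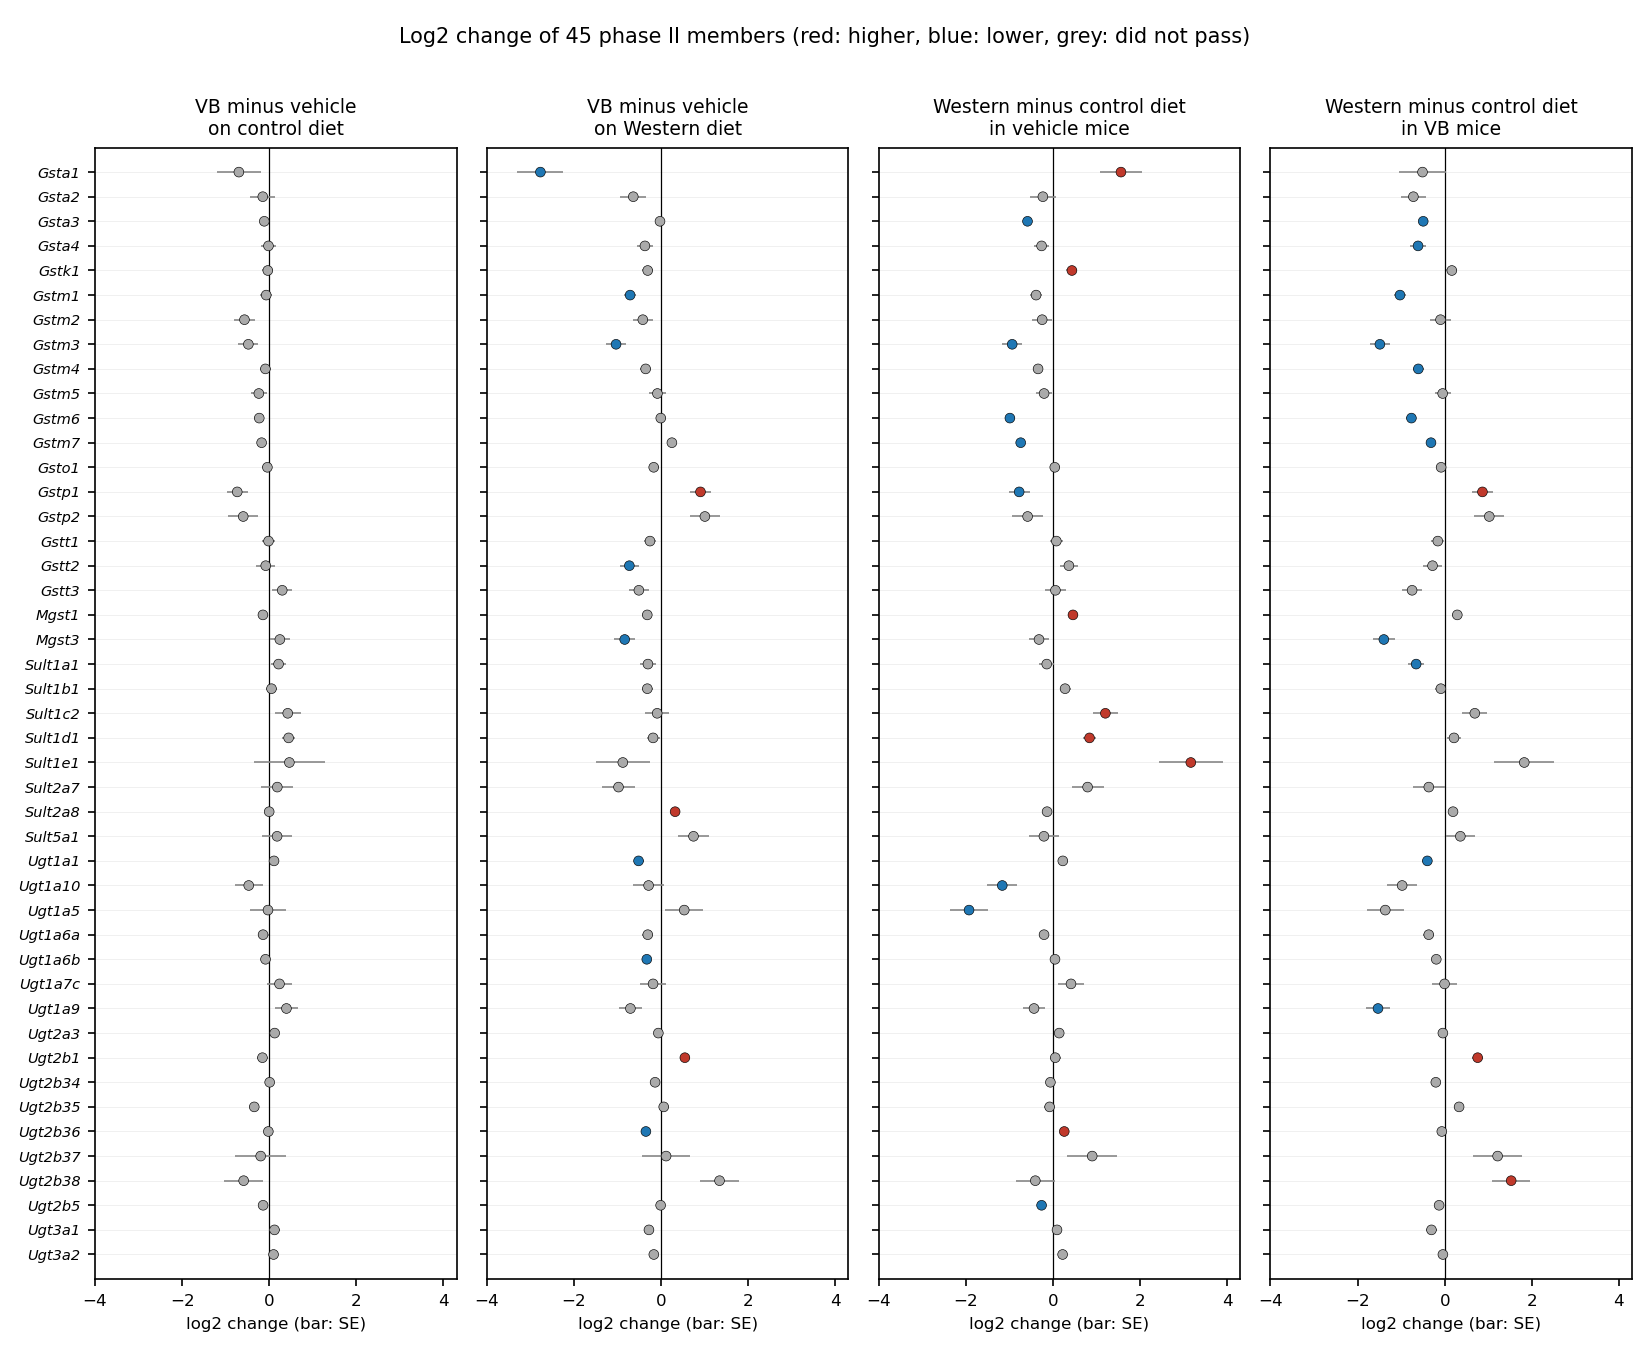
Log2 change and SE (bars) of the 45 members in the 4 comparisons of a pair of groups, with called members in red (higher) or blue (lower) and the others in grey. The panel for VB on the control diet has no coloured point, and the 11 called members of VB on the Western diet and the 15 of diet in vehicle mice stand in the middle panels.

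The conjugation enzymes depend on cosubstrates made by other genes. On the Western diet VB lowered 2 of 5 genes of UDP-glucuronic acid supply and raised none: Ugdh, which makes UDP-glucuronic acid, with a log2 change of -0.51 (SE 0.11, adjusted p = 0.00506), and Ugp2, which makes UDP-glucose, with -0.33 (SE 0.083, adjusted p = 0.0175). Ugdh stood at 150 to 228 CPM with vehicle and at 113 to 149.8 with VB. The list's median was 0.01, beside -0.02 over all genes. None of 6 genes of PAPS supply passed with VB on the Western diet, and 1 of 9 tested genes of glutathione supply, Cbs, rose with 0.40. With the Western diet in vehicle mice, 4 genes of glutathione supply fell and 1 rose: Cth with -0.85, Gclc, the catalytic subunit of the first step of glutathione synthesis, with -0.67, Cbs with -0.62 and Gsr with -0.30, while Gss rose with 0.62. The median of that list was -0.30, beside 0.02 over all genes.

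Genes under the same receptors as many members were counted in these comparisons too. Of 6 CAR and PXR targets outside the members, 5 fell with VB on the Western diet: Cyp2b10 with a log2 change of -2.67, Cyp3a11 with -1.54, Alas1 with -1.20, Por with -0.95 and Cyp2c29 with -0.69, with a list median of -1.08. The receptor genes Nr1i2 (PXR) and Nr1i3 (CAR) fell with -0.55 and -0.68, and Ahr rose with 0.45. Of 8 NRF2 targets 2 fell, Nqo1 with -1.05 and Srxn1 with -0.48, and the list median was 0.03. Of 4 tested AHR targets 1 rose, Cyp1a2 with 0.48, while the list median was -0.37. Of the 9 genes of conjugate efflux and uptake, the exporter Abcc3 fell with -1.28 and the uptake carrier Slco1a1 rose with 0.67. With the Western diet in vehicle mice, both Cyp1a1 and Cyp1a2 fell, with -2.09 and -1.78, and 3 CAR and PXR targets fell while 3 rose. The part of CAR, PXR, AHR and NRF2 in the changes of the members was not tested.

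Sex-biased genes moved beside the members as well. Of 12 genes known as higher in male liver, 8 rose with VB on the Western diet, Slco1a1 among them, and the list median was 1.11. Of 8 tested genes known as higher in female liver 4 fell and 1 rose, and the list median was -0.70. Among all tested genes 3.33% were higher and 3.86% lower, with a median of -0.02. With the Western diet in vehicle mice, 5 of the 12 male-biased genes fell and none rose. Of the 8 female-biased genes 3 rose and 1 fell with that diet. Genes of the clock and its output differed too with VB on the Western diet: Arntl and Nfil3 rose with log2 changes of 1.84 and 1.31 and Per3 fell with -0.99. With the Western diet in vehicle mice, 5 of 7 clock genes rose, Dbp with 4.80, and 2 fell. With VB on the control diet, where no member was called, Ciart and Tef rose with 2.74 and 1.12. The part of sex-biased genes and of clock genes in the changes of the members was not tested.

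Markers of other cells were counted in the same way. With VB on the Western diet 1 of 6 bile duct markers rose, Sox9, 1 tested acinar marker rose, Cela1, and 1 of 2 tested adipocyte markers fell, Cfd. None of the hepatocyte, Kupffer, sinusoidal endothelial, stellate, lymphocyte, red cell or enterocyte markers passed in that comparison. The 6 adipocyte markers summed to 41.1 to 287 CPM in Western diet vehicle mice and to 9.62 to 83.7 in Western diet VB mice, beside 5.71 to 10.2 CPM on the control diet. Cfd made most of the sum in Western diet vehicle mice, where Adipoq was at most 0.18 CPM and Lep was at 0. In Western diet VB mice 2 and 5, Adipoq was at 7.31 and 4.09 CPM and Lep at 2.23 and 0.096 CPM, while both were at 0 in the other 3 mice of that group. Without mouse 2 or mouse 5 of that group 7 members were called with VB on the Western diet, as given above. With the Western diet in vehicle mice, Cfd, Fabp2 and Stab2 rose and Serpina1a, Sox9, Reln and Cela1 fell, and in VB mice Cfd and Fabp2 rose and Alb, Dcn and Reln fell. The 5 enterocyte markers summed to 152 to 310 CPM in Western diet vehicle mice and 63.1 to 89.3 in control diet vehicle mice. Fabp2, the only enterocyte marker tested, made nearly all of that sum, at 152 to 310 and 63.0 to 89.1 CPM. Lct and Alpi were at 0 in both groups. The part of these markers in the changes of the members was not tested.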

How the data were processed

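The authors deposited raw counts of reads per gene, by symbol, in 40 lane files with 32544 gene rows each. Per the labels, liver RNA was made into libraries with a TruSeq kit, and the submitters' processing notes name GRCm38. The aligner, counter, annotation and strand setting were not given in the sources used here; near-identical and overlapping genes are therefore uncertain.

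Both lanes of a mouse were added, after a chi-square per df of 1.33 to 1.49 between lanes, beside 17.7 or more between mice. One fit of 20 mice in 4 groups was made in R 4.3.3 with edgeR 4.0.16 (robust quasi-likelihood test, TMM scaling, filterByExpr, minimum count 10). It kept 12616 genes, over which p was adjusted after Benjamini and Hochberg, with 0.05 as the limit for a call. Alternatives were DESeq2 1.42.0, limma-voom (limma 3.58.1), other scalings and filters, each lane alone, fitting just the compared groups, a block for mouse number, and dropping each mouse.

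The members, all lists and the choice of genes to name were made with earlier results of these data known. Named were the 2 members of a subfamily with the highest mean CPM and, per comparison and direction, up to 8 called members with the smallest p, in all 36. Further lists covered cosubstrate supply, other conjugation enzymes, hydrolases, transporters, regulators, receptor targets, the clock and its output, sex-biased genes and markers of 10 cell types. Positions and exon lengths are from GENCODE on GRCm38.

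In simulated counts for VB on the Western diet with 12482 genes, the procedure found 23 of the 49 genes set to a 1.5-fold change. It found 38 of 50 at 2-fold, 46 of 50 at 3-fold and 43 of 47 at 4-fold, and it called 6 genes that had not been changed. The least deep mouse had 16315342 counts.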

Additional observations from a re-analysis of the deposited data

Results flagged for a closer look

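In 5 of 144 groups of 5 mice tested by Dixon's rule, 1 mouse lay far from the other 4. Chance flags about 1 group in 20. Gsta1 was at 6.59 CPM in Western diet VB mouse 4, beside 0.53 to 2.05 in the others. Ugt1a6b was at 161 CPM in the same mouse, beside 135 to 140. Sult1a1 was at 367 CPM in Western diet vehicle mouse 4, beside 194 to 240. Gstp2 was at 8.94 CPM in control diet vehicle mouse 1, beside 3.22 to 4.71, and Ugt1a9 at 35.9 CPM in control diet VB mouse 1, beside 15.7 to 20.6.

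By the test of the difference itself, the effect of VB differed between the diets for 5 of 45 members. That is 11.1%, beside 7.64% of all tested genes. The differences of the log2 changes, Western minus control diet, were 1.64 for Gstp1, 1.60 for Gstp2, 0.70 for Ugt2b1, 0.42 for Gstm7 and -0.63 for Ugt1a1. The call of Gstp2 was lost for 15 of the 20 mice left out and that of Gstm7 for 11. Whether reads of Gstp1 make up part of the Gstp2 counts was not tested.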

How the results depend on the processing

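Of 45 calls of named members, 24 were kept under all 11 other settings and all 20 mice left out, 21 were lost under at least 1 of them and 0 reversed. The count of members called with VB on the control diet was 0, and 1 in a fit of only the groups compared and 1 with the mouse number as a block. With VB on the Western diet it was 11, and 7 without the low-count filter and 5 in a fit of only the groups compared. For the difference of the VB effects it was 5, and 10 with DESeq2, 9 with the block, 3 without the filter and 3 from lane 2 alone. The block gave 13 with VB on the Western diet, 17 for diet in vehicle mice and 16 for diet in VB mice. No label ties the numbers to a litter or day, and not every same-number correlation of deviations was above 0.1 (-0.07 to 0.38, median 0.04, beside a median of -0.01 and a highest of 0.22 for other numbers), so the mice were not treated as paired. As a hint of pairing in the data, the best match among the 5 mice of another group had the same number in 28 of 60 pairings, and in all 3 other groups for 3 mice. A random pick among 5 mice would have the same number 1 time in 5. Pairing by mouse number is thus not excluded, and the counts with the block show how the calls moved under it. With each mouse left out in turn the counts ran from 0 to 0, 6 to 15, 11 to 17, 8 to 18 and 3 to 9, for VB on the control diet, VB on the Western diet, diet in vehicle mice, diet in VB mice and the difference. Over all genes, VB on the control diet called 19 by edgeR and 164 by DESeq2, and VB on the Western diet called 907, and 464 in a fit of only the groups compared. The difference called 964, and 1702 without Western diet vehicle mouse 4. For counts that fell with fewer mice, fewer samples were fitted; for the other settings the cause was not tested. Depth limits Sult1e1, Ugt1a10 and Sult2a7, with under 600 summed counts each.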

Other observations

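Other enzymes that add or remove groups also moved. With the Western diet in vehicle mice, 6 of 17 other conjugation enzymes rose and 1 fell. Among them Hnmt, which methylates histamine, rose with a log2 change of 0.98 (SE 0.14), Inmt, an indolethylamine methyltransferase, with 0.83 and Acsm3, a medium-chain acyl-CoA synthetase, with 0.77, while Gm4952, a glycine acyltransferase-like gene, fell with -0.60. With VB on the Western diet Acsm3 fell with -0.76 (SE 0.12) and Hnmt with -0.49 (SE 0.14), and the difference of the VB effects was called for both, with -1.09 and -0.72 (edgeR's quasi-likelihood test).

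All 5 tested genes of conjugate and epoxide hydrolysis rose with the Western diet in vehicle mice: Arsa, a lysosomal sulfatase, with 1.04, Arsb with 0.40, Ephx1, the microsomal epoxide hydrolase, with 0.34, Gusb, the glucuronidase that splits glucuronides, with 0.32 and Ephx2 with 0.25. The list's median was 0.34, beside 0.02 over all genes. With VB on the Western diet Arsa fell with -0.64 and Ephx1 with -0.63, and the difference of the VB effects was called for Arsa alone of the 5, with -1.01.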
